A study of Homo sapiens with 12 samples.

Results

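Synaptotagmins are membrane proteins with a pair of calcium- and lipid-binding (C2) domains that link vesicles to the membrane they fuse with. Some, such as synaptotagmin 1 in neurons, trigger fusion when calcium rises, and others do not bind calcium and act elsewhere in vesicle traffic. Synaptotagmin-like proteins share the paired C2 domains but carry an amino-terminal domain that binds the small GTPase Rab27, and they dock granules and other vesicles. Both kinds of protein serve secretion in gland and endocrine cells, the pancreas included. The transcripts described here are those of 10 such genes, *SYT1*, *SYT7*, *SYT8*, *SYT11*, *SYT12* and *SYT13*, and *SYTL1*, *SYTL2*, *SYTL4* and *SYTL5*, taken by gene symbol from a table of 23346 genes. All 10 passed the filter on low values, a mean RPKM of at least 0.1. RPKM are reads scaled to gene length in kilobases and to library size.

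RNA-seq was carried out on SW1990 and CFPAC-1, established human pancreatic adenocarcinoma cell lines. Cells of each were stained with GCTM-5, a monoclonal antibody to a cell surface antigen of pancreatic duct and tumour cells, and sorted into antigen positive and antigen negative cells, which gave 12 samples, 3 for each of the 4 combinations of line and population. The gates took the strongly stained and the unstained cells, both populations of a line were grown and stained alike, and the labels give no genotype change or drug treatment. Each line stands for 1 tumour, and the samples came from repeated sorts, 3 for each line. No source used here says whether separate cultures were sorted, so p-values measure the spread between these samples, which may be technical. *SYT11* was selected on its lower RPKM in positive cells of both lines, and the other genes were chosen by family with the RPKM of the 4 groups in view. The differences between groups are therefore given for these 10 genes as values with a standard error (SE) and without a test. Genes outside the 10 were tested. Their lists too were chosen with earlier results of these data known, so their p-values are to be read with that limit.

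Library totals, recovered from the RPKM values, ran from 9969697 reads in CFPAC-1 positive replicate 3 to 26159330 in CFPAC-1 positive replicate 1. All 6 epithelial markers were above 0 in every group, and their summed RPKM was 1595 to 1942 in SW1990 negative samples, 4360 to 4841 in SW1990 positive samples, 5411 to 6173 in CFPAC-1 negative samples and 6676 to 8162 in CFPAC-1 positive samples. Among 13 neuroendocrine granule markers, which matter here because such cells are rich in synaptotagmins, the sum was 403 to 472 in negative and 68.2 to 119 in positive SW1990 cells, and 15.5 to 24.1 over both CFPAC-1 populations, with *PCSK2* and *CADPS* at 0 in every sample. Most of the SW1990 sums was *SCG2*, at 401 and 80.8 mean RPKM in negative and positive cells. The other markers of this list averaged at most 9.19 in SW1990, where *CHGA* averaged at most 0.0378. *SYP* was at 0.667 and 0.615. The 8 fibroblast markers summed to 12.7 to 22.6 in negative SW1990 cells and to 3.90 to 4.88 in the positive cells, with *COL1A2*, *COL3A1*, *DCN* and *THY1* at 0 in the latter, and to at most 2.40 in CFPAC-1. The 4 endothelial markers summed to 14.8 to 18.8 in negative and 1.47 to 2.05 in positive SW1990 cells, with at most 1.49 in CFPAC-1. The 5 leukocyte markers summed to 33.7 to 46.8 and 15.1 to 32.6 in these populations, and to 109 to 162 in CFPAC-1. In negative SW1990 cells these sums too were mostly from a single gene each, *LUM*, *CDH5* and *CD68*. Mean RPKM in negative and positive SW1990 cells was 13.2 and 2.43 for *LUM*, 15.6 and 1.33 for *CDH5*, and 42.0 and 21.7 for *CD68*. The epithelial sum was higher in positive SW1990 cells and the other sums were lower, while the sorting differences given next went both ways. The part of cell composition in those differences was not tested. In sorted bulk samples, fewer cells that express a gene and less RNA per cell cannot be told apart.

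*SYT11*, at chr1:155829358-155854990 on the plus strand (GRCh37), encodes a synaptotagmin that does not bind calcium and that acts in endocytosis and phagocytosis. Its promoter is shown because it is the 1 gene of the 10 that passed the thresholds of change given further on in both lines, and that of *SYTL1*, a gene that was higher in positive cells of SW1990 and whose populations overlapped in CFPAC-1, is set beside it. Both run from 250 bases before to 50 bases after the start that RefSeq gives, were taken from RefSeq's GRCh38.p14 sequences, and each matched GRCh37 exactly at 1 place, at chr1:155829108-155829407 for *SYT11* and chr1:27668263-27668562 for *SYTL1*, both on the plus strand. Capitals mark the E-box CAGGTG, or its reverse complement CACCTG, which ZEB and SNAIL repressors bind.
SYT11: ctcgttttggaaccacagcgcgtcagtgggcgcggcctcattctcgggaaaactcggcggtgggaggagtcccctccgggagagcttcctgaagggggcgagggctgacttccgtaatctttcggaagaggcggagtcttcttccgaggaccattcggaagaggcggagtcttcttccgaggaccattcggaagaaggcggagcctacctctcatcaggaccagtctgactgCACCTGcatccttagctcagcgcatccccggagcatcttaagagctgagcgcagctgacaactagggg
SYTL1: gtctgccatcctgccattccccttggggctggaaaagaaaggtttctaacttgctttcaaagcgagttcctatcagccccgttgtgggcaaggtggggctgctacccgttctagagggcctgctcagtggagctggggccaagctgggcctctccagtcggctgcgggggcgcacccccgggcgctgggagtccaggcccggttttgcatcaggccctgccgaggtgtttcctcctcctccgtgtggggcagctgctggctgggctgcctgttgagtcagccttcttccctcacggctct
The *SYT11* promoter holds 1 E-box, 12 bases before the start, and the *SYTL1* promoter holds none. Of the 27305 promoters of this length in the table, 20.6% hold an E-box on either strand. Promoters of *SYT1*, *SYTL4* and *SYTL5* were also searched and hold no E-box. The Grainyhead-like element AACCNGTT, searched on both strands and found in 1.73% of all promoters, was found in the promoter of *SYTL5* alone of these 5. A match of letters describes the sequence and says nothing of binding.

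*SYT11* was the gene of the 10 that stood lower in positive cells of both lines past 2-fold. Its RPKM was 2.67, 2.99 and 3.34 in negative SW1990 cells and 0.117, 0.156 and 0.182 in positive SW1990 cells. In CFPAC-1 it was 3.58, 2.31 and 2.48 in negative cells and 0.319, 0.464 and 0.380 in positive cells. All 6 negative samples were above all 6 positive ones, with no overlap in either line. The ratio of mean RPKM was 19.8-fold lower in positive cells of SW1990 and 7.20-fold lower in those of CFPAC-1. On the scale of log2 (RPKM + 0.1), on which all log2 differences are given and which understates those of low genes, the differences were -3.63 (SE 0.22) and -2.55 (SE 0.22), with 3 samples a group. The positive samples still held 12 to 17 reads of the gene in SW1990 and 20 to 46 in CFPAC-1, so it was low but detected there. Of all 16236 genes fitted, 1.24% passed the thresholds as lower in positive cells of both lines.

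**Figure D1:**
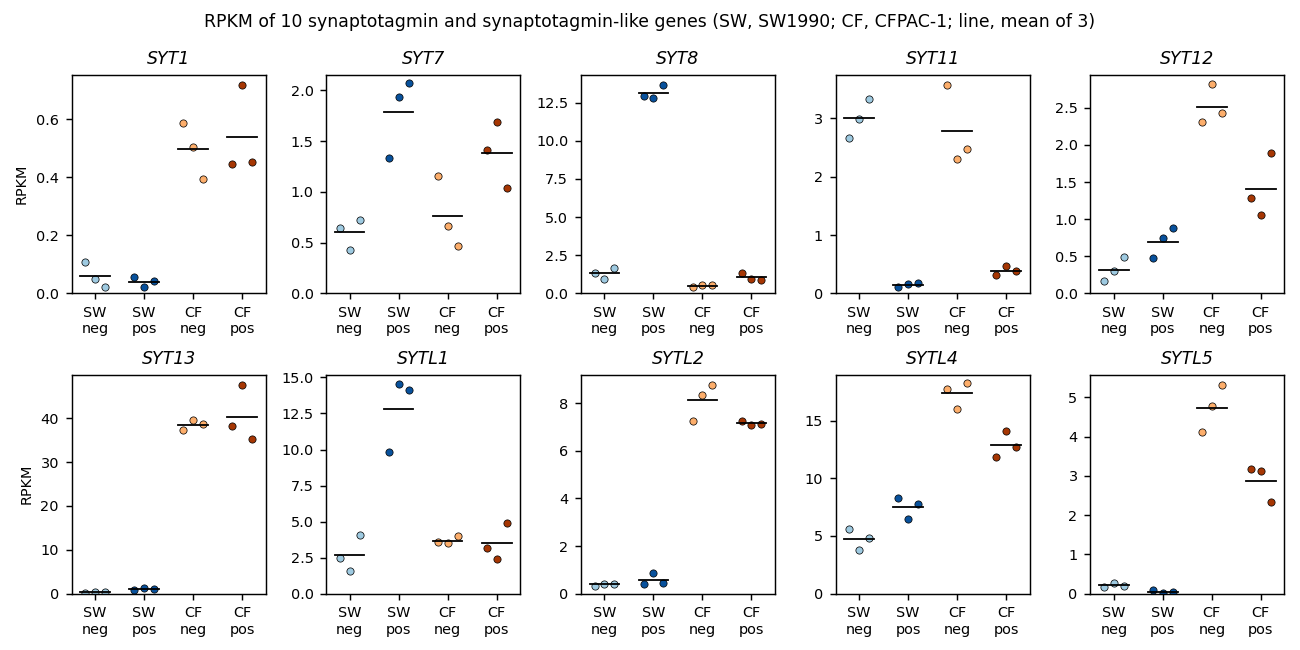
RPKM of the 10 genes in each of the 12 samples, on a linear axis from 0 that differs between panels, for negative (neg) and positive (pos) cells of SW1990 (SW) and CFPAC-1 (CF). Points are samples and lines are means of 3. *SYT11* is low in both positive groups, *SYT8* and *SYTL1* are high in positive SW1990 cells, and *SYT13*, *SYTL2* and *SYTL5* are high in both CFPAC-1 groups.

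The classical calcium sensors of the set are *SYT1*, which serves fast release at synapses, and *SYT7*, a slower sensor of high calcium affinity that acts in granule and lysosome exocytosis and membrane repair. *SYT1* was low in SW1990, at 0.110, 0.0484 and 0.0212 RPKM in negative and 0.0581, 0.0221 and 0.0424 in positive cells, which are 2 to 12 reads a sample. It was 0.588, 0.507 and 0.396 in negative and 0.445, 0.720 and 0.452 in positive CFPAC-1 cells. The 6 CFPAC-1 samples were above the 6 SW1990 samples, and the populations of a line overlapped. *SYT7* was 0.646, 0.430 and 0.724 RPKM in negative and 1.34, 1.93 and 2.07 in positive SW1990 cells. It was 1.16, 0.665 and 0.462 in negative and 1.41, 1.69 and 1.03 in positive CFPAC-1 cells. The groups were apart in SW1990, with a log2 difference of 1.43 (SE 0.31), and overlapped in CFPAC-1, with one of 0.83 (SE 0.31).

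*SYT8*, *SYT12* and *SYT13* encode synaptotagmins that lack the usual calcium-binding residues. *SYT8* was 1.37, 0.966 and 1.67 RPKM in negative and 13.0, 12.8 and 13.7 in positive SW1990 cells, on 309 to 358 reads in the latter. In CFPAC-1 it was 0.433, 0.578 and 0.529 in negative and 1.34, 0.973 and 0.846 in positive cells. Positive samples were above negative ones in both lines, by 9.86-fold and 2.05-fold as ratios of means, and by 3.24 and 0.90 on the log2 scale (SE 0.22 for each). In CFPAC-1 the values rest on 12 to 18 reads a negative sample and 12 to 50 a positive one.

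*SYT13*, a gene expressed in the endocrine pancreas, had the highest level of the 10 genes in CFPAC-1. It was 37.4, 39.6 and 38.6 RPKM in negative and 38.2, 47.5 and 35.3 in positive CFPAC-1 cells, and these groups overlapped. In SW1990 it was 0.253, 0.272 and 0.463 in negative and 0.758, 1.40 and 0.987 in positive cells. The positive SW1990 samples were above the negative ones by 1.41 on the log2 scale (SE 0.22), yet far below every CFPAC-1 sample.

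*SYT12* was 0.170, 0.300 and 0.487 RPKM in negative and 0.471, 0.745 and 0.881 in positive SW1990 cells, which overlapped, and 2.31, 2.82 and 2.43 in negative and 1.29, 1.06 and 1.89 in positive CFPAC-1 cells, which did not. Its fitted differences between positive and negative cells were 0.97 in SW1990 and -0.82 in CFPAC-1 (SE 0.31 for each). Neither passed the thresholds.

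Among the synaptotagmin-like genes, *SYTL1*, which encodes a Rab27 effector of granule secretion also called JFC1, stood apart in positive SW1990 cells. Its RPKM was 2.45, 1.60 and 4.05 in negative and 9.86, 14.5 and 14.1 in positive SW1990 cells. It was 3.55, 3.51 and 3.98 in negative and 3.19, 2.44 and 4.90 in positive CFPAC-1 cells. The 3 positive SW1990 samples were above the other 9, and the other 3 groups overlapped. The difference was 2.28 in SW1990 and -0.12 in CFPAC-1 (SE 0.31 for each).

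*SYTL4* encodes granuphilin, which docks insulin granules. Its RPKM was 5.64, 3.76 and 4.78 in negative and 8.29, 6.44 and 7.81 in positive SW1990 cells, and 17.8, 16.0 and 18.2 in negative and 11.9, 14.1 and 12.7 in positive CFPAC-1 cells. None of the 4 groups overlapped with another, and positive cells were the higher in SW1990 (0.67, SE 0.15) and the lower in CFPAC-1 (-0.43, SE 0.15). *SYTL4* overlaps *SRPX2*, a gene on the opposite strand that was at 6.59, 10.8, 36.5 and 31.8 mean RPKM in negative and positive SW1990 and negative and positive CFPAC-1 cells. Whether the counting used strand is not given in the sources used here, so reads of these genes may not be told apart.

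*SYTL2*, which encodes a Rab27 effector that tethers vesicles to the plasma membrane, was 0.334, 0.420 and 0.425 RPKM in negative and 0.401, 0.887 and 0.469 in positive SW1990 cells. In CFPAC-1 it was 7.26, 8.35 and 8.77 in negative and 7.25, 7.10 and 7.12 in positive cells. The samples of the SW1990 populations overlapped and those of CFPAC-1 lay just apart, and the differences between positive and negative cells were 0.42 and -0.18 (SE 0.23 for each). *SYTL5*, another Rab27 binder, was 0.179, 0.264 and 0.185 RPKM in negative and 0.0845, 0.0241 and 0.0462 in positive SW1990 cells, on 2 to 8 reads in the latter, and 4.11, 4.79 and 5.31 in negative and 3.18, 3.12 and 2.34 in positive CFPAC-1 cells. Negative samples were above positive ones in both lines, by log2 differences of -1.04 and -0.70 for positive over negative cells (SE 0.22 for each).

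By thresholds of over 2-fold and an unadjusted p under 0.01 in limma, 4 of the 10 genes were higher in positive SW1990 cells (*SYT7*, *SYT8*, *SYT13* and *SYTL1*), where 4.59% of all genes fitted were, and 2 were lower (*SYT11* and *SYTL5*), where 7.48% were. With each sample centred on its median the split was 5 higher and 1 lower. In CFPAC-1, 0 of the 10 were higher, where 5.65% of genes were, and *SYT11* was the 1 that was lower, where 4.13% were. In that line 2 of the 10 were higher and 4 lower at an unadjusted p under 0.05, where 27.6% and 18.7% of all genes were, and limma's voom on the recovered reads counted 1 as higher, *SYT8*. The CFPAC-1 count of 1 gene became 2 without CFPAC-1 negative replicate 1 and 3 without CFPAC-1 positive replicate 3. The samples of the populations did not overlap for 5 genes higher and 2 lower in positive SW1990 cells, where 17.9% and 25.4% of all genes were so, and for 1 higher and 5 lower in CFPAC-1, where 28.1% and 20.4% were. As the choice of genes used these differences, the counts are given as a description. The difference of the differences, SW1990 minus CFPAC-1, was -1.07 (SE 0.31) for *SYT11*, 2.34 (SE 0.31) for *SYT8*, 2.41 (SE 0.44) for *SYTL1* and 1.36 (SE 0.31) for *SYT13*, likewise without a test.

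**Figure D2:**
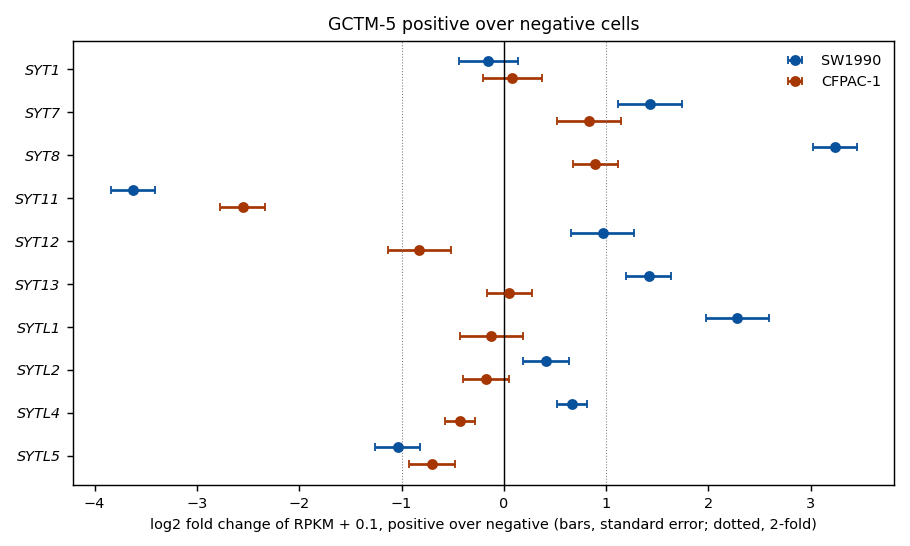
Log2 fold change of RPKM + 0.1 in positive over negative cells for the 10 genes, with points for each line, bars of 1 standard error and dotted lines at 2-fold. *SYT11* lies at -3.63 in SW1990 and -2.55 in CFPAC-1, while *SYT8* lies at 3.24 and 0.90 and *SYTL1* at 2.28 and -0.12.

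The 10 genes held different shares of their summed RPKM in the 4 groups. In SW1990 the 10 genes summed to 13.7 ± 2.56 RPKM (SD, n = 3) in negative cells and 37.9 ± 3.12 in positive cells. In CFPAC-1 the sums were 79.5 ± 1.55 and 71.5 ± 6.66. In negative SW1990 cells *SYTL4* was 34.8%, *SYT11* 22.3% and *SYTL1* 19.1% of the sum. In positive SW1990 cells *SYT8* and *SYTL1* led with 34.9% and 33.7%, and *SYT11* was 0.398%. In CFPAC-1 *SYT13* was 48.4% of the sum in negative and 56.2% in positive cells, followed by *SYTL4* with 21.8% and 18.0%.

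Levels were also compared between the lines within each sorted population. Since the RPKM of the 4 groups were in view when the genes were chosen, these differences too are described without a test. In negative cells, 6 of the 10 genes passed the thresholds as lower in SW1990 than in CFPAC-1, where 15.0% of all genes did, and 1 as higher, where 21.9% did. The median difference of the 10 genes was -1.90 on the log2 scale in negative cells, where that of all genes was 0.19, and -0.93 in positive cells, where that of all genes was 0.06. *SYT13* was 117-fold lower as a ratio of means in negative SW1990 cells, with a log2 difference of -6.52 (SE 0.22). *SYTL2* differed by -4.06 (SE 0.23) and *SYTL5* by -3.97 (SE 0.22). *SYT12* (-2.71), *SYT1* (-1.93) and *SYTL4* (-1.87) were lower as well. *SYT8* was higher in SW1990 by 1.20 (SE 0.22).

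In negative cells the fitted differences between lines stayed under 2-fold for *SYT11*, at 0.12 (95% interval -0.36 to 0.60), for *SYT7*, at -0.24 (interval -0.93 to 0.44), and for *SYTL1*, at -0.53 (interval -1.20 to 0.15). The intervals rest on the spread between samples and are given as a description, not as a test.

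In positive cells, 4 of the 10 genes passed the thresholds as lower in SW1990, where 13.7% of all genes did, and 2 as higher, where 14.8% did. *SYT13* was 38.4-fold lower (-5.16, SE 0.22), and the differences of *SYTL5*, *SYTL2* and *SYT1* were -4.30, -3.47 and -2.16 on the log2 scale. *SYT8* was higher in SW1990 by 3.54 (SE 0.22) and *SYTL1* by 1.88 (SE 0.31). *SYT11* differed by -0.95 (SE 0.22), just under 2-fold on this scale and 2.55-fold as a ratio of means. *SYT12* at -0.92 (SE 0.31) and *SYTL4* at -0.77 (SE 0.15) also stayed under 2-fold, and *SYT7* at 0.35 had an interval of -0.33 to 1.03.

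**Figure D3:**
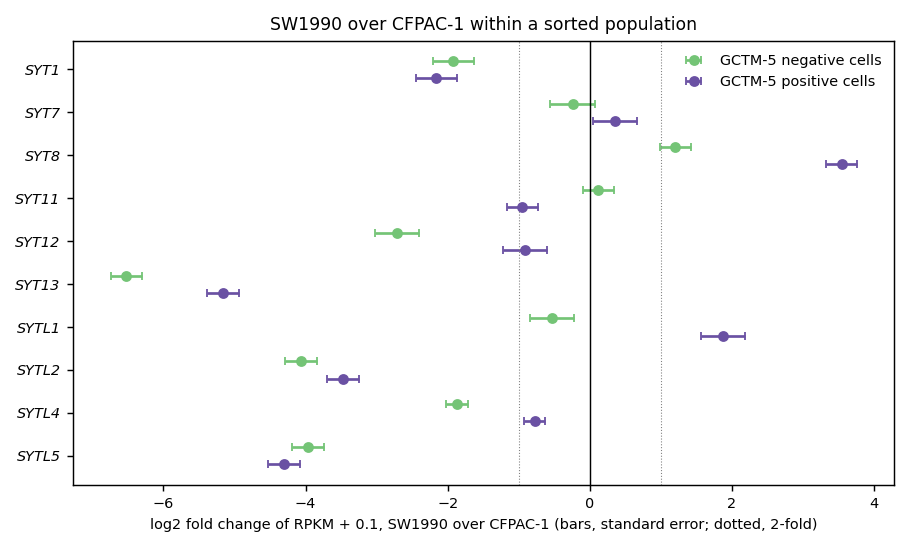
Log2 fold change of RPKM + 0.1 in SW1990 over CFPAC-1 within negative and within positive cells for the 10 genes, with bars of 1 standard error and dotted lines at 2-fold. *SYT13* lies at -6.52 and -5.16, *SYT8* lies to the right of 0 in both populations, and *SYT11* lies at 0.12 in negative and -0.95 in positive cells.

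The other genes of the family number 12, of which 7 passed the filter. *SYT4*, *SYT6*, *SYT9* and *SYT10* had 0 reads in every sample, and *SYT3* had at most 10. Of the 7, *SYT15* was lower in positive than in negative SW1990 cells, at 0.634, 1.31 and 0.833 against 5.72, 3.96 and 3.78 RPKM (-2.19, SE 0.28, limma adjusted p = 0.00011). In CFPAC-1 it was 1.34, 1.00 and 0.793 in positive against 0.632, 0.442 and 0.423 in negative cells (0.92, SE 0.28, limma adjusted p = 0.023), under 2-fold on the log2 scale. The lines thus differed in opposite directions, by -3.11 (SE 0.40, limma adjusted p = 0.00019). *SYT15* has a near copy, *SYT15B*, whose annotated span overlaps it, so its counts are uncertain.

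*SYT16* was higher in positive cells of both lines by 1.75 and 1.74 (SE 0.49 for each, limma adjusted p = 0.018 and 0.016) but rests on few reads. Its positive cells held 53, 22 and 27 reads in SW1990 and 48, 20 and 2 in CFPAC-1, against 2, 8 and 10 and 0, 0 and 2 in the negative cells. It missed the thresholds under 6 of 23 alternatives in SW1990, among them without negative replicate 1 and without positive replicate 1, and under 8 of 23 in CFPAC-1, among them with only the 6 samples of that line, without negative replicate 1 or 2 and without positive replicate 1 or 2. A pseudocount of 1 and a replicate block within line ended the call in both lines. Over these alternatives, the adjusted p ran from 0.0033 to 0.074 in SW1990 and from 0.0014 to 0.068 in CFPAC-1.

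*SYT14* was 3.14, 3.65 and 4.16 RPKM in negative and 3.79, 5.11 and 4.76 in positive SW1990 cells, and had 0 reads in the 3 negative CFPAC-1 samples and 4, 0 and 2 in the positive ones. It was at least 134-fold higher in negative SW1990 than in negative CFPAC-1 cells against a floor of 3 reads per library. *SYT2*, *SYT5*, *SYT17* and *SYTL3* passed the thresholds in neither line.

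**Figure D4:**
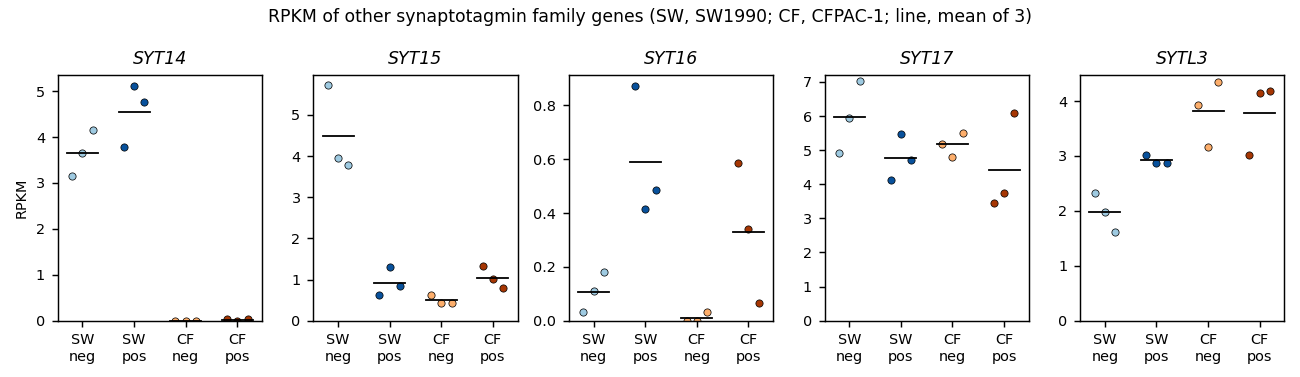
RPKM of 5 other family genes in each of the 12 samples, on a linear axis from 0 that differs between panels, with lines at the means of 3, for negative (neg) and positive (pos) cells of SW1990 (SW) and CFPAC-1 (CF). *SYT15* is high in negative SW1990 cells, *SYT14* is at or near 0 in all CFPAC-1 samples, and *SYT16* is spread widely in the positive cells.

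The machinery with which these proteins work was described with 65 genes in 3 lists, of C2 domain relatives, of Rab GTPases of exocytosis and their effectors, and of exocytic SNAREs and their regulators, of which 51 passed the filter. In positive SW1990 cells 3 were higher (5.88% of 51, against 4.59% of all genes) and 8 were lower (15.7%, against 7.48%), with a median log2 difference of -0.17 against -0.04. With quantile normalization 4 were higher and 4 lower. In positive CFPAC-1 cells 0 were higher in limma, against 5.65% of all genes, and 1 was lower (1.96% of 51, against 4.13%). At an unadjusted p under 0.05 in limma, 12 were higher and 11 lower, where 27.6% and 18.7% of all genes were. Voom on the recovered reads counted 2 as higher and 2 as lower. The sorting difference itself differed between the lines for 17 of the 51 (33.3%), against 26.9% of all genes at an adjusted p under 0.05.

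The genes that passed the thresholds as higher in positive SW1990 cells were *STX19*, *EXPH5* and *MCTP2*. *STX19* encodes an epithelial syntaxin, *EXPH5* a Rab27 effector, and *MCTP2* a protein with C2 domains and membrane-spanning segments. *STX19* went from 0.245 to 2.04 mean RPKM (2.66, SE 0.29, limma adjusted p = 3.1e-05), on 4 to 10 reads in the negative samples. *EXPH5* went from 0.491 to 3.56 (2.63, SE 0.18, limma adjusted p = 9.3e-07) and *MCTP2* from 0.349 to 0.939 (1.21, SE 0.19, limma adjusted p = 0.00048). In each the SW1990 difference exceeded that of CFPAC-1, by 2.68, 2.18 and 1.86, with limma adjusted p of 0.00063, 0.00012 and 0.00043.

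The SNAREs *SNAP25* and *STX2* fell in positive SW1990 cells. *SNAP25*, a partner of synaptotagmin 1 in neurons, went from 16.8 to 3.49 mean RPKM (-2.28, SE 0.35, limma adjusted p = 0.00039) and was 0.354 and 0.218 in negative and positive CFPAC-1 cells. *STX2* went from 17.2 to 7.36 (-1.22, SE 0.16, limma adjusted p = 0.00015). *RAB8B*, a Rab GTPase of transport to the plasma membrane, fell from 15.7 to 5.30 (-1.55, SE 0.12, limma adjusted p = 1.6e-06), and *MCTP1* from 1.12 to 0.410 (-1.25, SE 0.17, limma adjusted p = 0.00015). A further 3 genes passed the thresholds in SW1990, *RIMS3*, *STX11* and *UNC13A*, named here after their values were seen, and all 3 were lower.

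**Figure D5:**
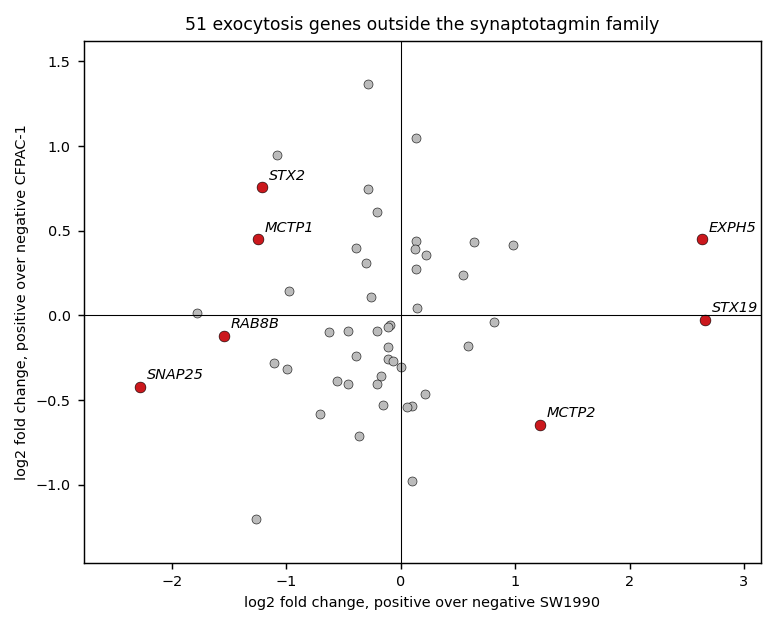
Log2 fold change in positive over negative cells for 51 exocytosis genes, with SW1990 on the horizontal and CFPAC-1 on the vertical axis, each point a gene. The labelled genes are described in the text. *EXPH5* and *STX19* lie at 2.63 and 2.66 in SW1990 and *SNAP25* at -2.28.

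Rab27, the partner of the synaptotagmin-like proteins, was measured as *RAB27A* and *RAB27B*. *RAB27A* was at 8.86 and 7.86 mean RPKM in negative and positive SW1990 cells and at 16.8 and 13.1 in CFPAC-1, and *RAB27B* at 11.9 and 8.28 and at 28.5 and 22.0. Neither passed the thresholds between positive and negative cells of a line, though both were lower on average in positive cells of both lines. The log2 differences in SW1990 and CFPAC-1 were -0.17 and -0.36 for *RAB27A* (SE 0.11 for each, limma adjusted p = 0.28 and 0.025). They were -0.55 and -0.39 for *RAB27B* (SE 0.21 for each, limma adjusted p = 0.071 and 0.17). *RAB27B* was lower in SW1990 than in CFPAC-1 by -1.26 in negative (limma adjusted p = 0.00019) and -1.43 in positive cells (limma adjusted p = 9.2e-05).

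The genes whose profile over the 12 samples lay closest to that of *SYT11* were *LRRC32*, *INS-IGF2*, *IGF2*, *LOC283070* and *CLDN11*. Likeness was the root mean square difference between log2 (RPKM + 0.1) profiles, each centred on its own mean, among 14241 genes, and these 5 were at 0.35, 0.43, 0.44, 0.46 and 0.53. *INS-IGF2* and *IGF2* overlap and so are not separate measurements. Their group means show how close the match was. *CLDN11*, a tight junction claudin, was at 48.0 and 42.4 RPKM in negative SW1990 and CFPAC-1 cells and at 8.63 and 11.8 in the positive cells, and *LRRC32*, which encodes a cell surface anchor of latent TGF-beta, was at 1.11 and 0.902 and at 0.0512 and 0.109.

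For *SYT8* the nearest genes were *SCEL* (0.33) and *PAPL* (0.37), and *SCEL*, which encodes a precursor of the cornified envelope, was at 66.4 RPKM in positive SW1990 cells and at most 11.6 in the other groups. For *SYTL1* they were *PPL* (0.24), which encodes periplakin of the same structure, and *ENTPD2* (0.26). *PPL* was at 106 RPKM in positive SW1990 cells and at 21.7 to 30.3 in the others. For *SYT13* they were *RNF43* (0.30), a membrane ubiquitin ligase that restrains Wnt signalling, and *WNT7A* (0.40), a Wnt ligand, at 10.4 and 9.26 RPKM in negative CFPAC-1 cells and 0.0291 and 0.0387 in negative SW1990 cells. For *SYTL2*, *SYTL5*, *SYT12* and *SYT1* the nearest were *GUCY1A3*, *RAB36*, *ITGB2* and *C17orf76-AS1*, at 0.22, 0.23, 0.25 and 0.22. The candidates share libraries and depth, and no test was made of these likenesses.

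On the genome, 5 of the 10 genes lie on chromosome 11, 2 on chromosome 1, 2 on the X chromosome and 1 on chromosome 12. Those on chromosome 11 are *SYT8* at chr11:1849537-1858751 on the plus strand, *SYT13* at chr11:45261853-45307892 and *SYT7* at chr11:61281186-61348620 on the minus strand, *SYT12* at chr11:66774249-66818334 on the plus strand and *SYTL2* at chr11:85405267-85522202 on the minus strand. *SYTL1* lies at chr1:27668511-27680428 on the plus strand. These are GENCODE spans on GRCh37.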

How the data were processed

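RNA-seq of 12 samples was analysed, grouped by cell line and sorted population. According to the paper's methods, the authors used QuasR to count reads on hg19/GRCh37 and deposited them as RPKM, scaled for gene length and library size. The annotation, the use of strand and how multiply matching reads were handled are not given in the sources used here, and the labels and the paper name different library kits. Columns of other samples numbered 0. The 10 genes and all lists were chosen with earlier results of these data known. A test planned for the 10 genes between lines is given as values only, since the choice had those values in view.

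Library totals were recovered from the RPKM values with GENCODE 44 lengths of genes of 1 exon on GRCh37. For each gene with reads in 2 or more samples, the smallest length that made its reads whole to within 0.001 in all samples was taken. Such a length was found for 100% of these 18762 genes, so wholeness was the rule of the search and no check of it. A multiple of that length would fit as well, so reads of a gene may be too low. The recovered reads summed to 99.93% to 99.96% of the library totals. Of 22528 values of 2 to 9 reads, 70.3% were even, so that both mates of a pair may have been counted and the number of independent fragments may be lower than the reads given. Floors cover counting error only, and intervals of log2 differences come from limma's estimate of the spread between samples.

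The 16236 genes averaging 0.1 RPKM or more were fitted as log2(RPKM + 0.1) in R 4.3.3 with limma 3.58.1 (4 group means, eBayes with a trend, 2-sided). A gene was called at over 2-fold and an unadjusted p under 0.01 (the study states both values but not whether its p was adjusted), and p-values were adjusted by Benjamini-Hochberg over all genes fitted. The study's own tests used TCC, which was not used here. For exocytosis genes and the other family genes, a difference between the lines in their sorting difference was called at an adjusted p under 0.05. The script was tested on simulated data.

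Genes named are the 10, the other family genes, exocytosis genes called in both lines and, per line, up to 4 each way by fold change among those called, separated and at a mean RPKM of at least 1, and the genes nearest in profile (5 for *SYT11*, 2 for others whose group means span over 2 on the log2 scale, mean RPKM of at least 0.5). Of the exocytosis genes so named, 1 is counted but not reported here. Alternatives covered pseudocounts, filters, scaling, the samples fitted, a replicate block, the trend, an adjusted threshold, voom on the recovered reads and each sample left out. Promoters came from RefSeq, for 5 of the 10 genes. Tables and plots were made in Python 3.11.15 (numpy 2.4.6, pandas 2.3.3, matplotlib 3.10.9, numba 0.67.0).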

Additional observations from a re-analysis of the deposited data

Results flagged for a closer look

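*SYTL4* was higher in positive cells of SW1990 and lower in those of CFPAC-1, with every sample of a group on its side of the other group. Both differences were under 2-fold (0.67 and -0.43), and they were 1.10 apart on the log2 scale, which was not tested. Mean RPKM of *SRPX2*, which overlaps it on the opposite strand, went from 6.59 to 10.8 in SW1990. In CFPAC-1 it went from 36.5 to 31.8, where its samples overlapped. The part of *SRPX2* reads in the *SYTL4* values was not tested.

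In 8 other genes the difference between positive and negative cells differed between the lines by a limma contrast of the contrasts. The SW1990 difference minus that of CFPAC-1 was 2.68 for *STX19*, 2.18 for *EXPH5* and 1.86 for *MCTP2*, and it was -3.11 for *SYT15*, -1.97 for *STX2*, -1.86 for *SNAP25*, -1.70 for *MCTP1* and -1.43 for *RAB8B*. Limma adjusted p ran from 0.00010 for *RAB8B* to 0.016 for *SNAP25*. Of these 8, *SYT15*, *STX2* and *MCTP2* had limma adjusted p under 0.05 in opposite directions in the lines, as did *RIMS3*, named after its values were seen (-1.08, adjusted p = 0.0053 in SW1990, and 0.95, adjusted p = 0.0098 in CFPAC-1), and *SYT15* has a near copy in the genome.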

How the results depend on the processing

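No value past the thresholds changed sign under the alternatives run. Of 458 re-estimated differences of the 10 genes between lines, 3 no longer passed the thresholds, all with a pseudocount of 1 (*SYT1* in both populations, *SYT8* in negative cells), and 6 newly passed them (*SYT11* under 4 alternatives and *SYT12* under 2, in positive cells). The count past the thresholds stayed at 7 in negative cells with any sample left out and ran from 6 to 8 in positive cells.

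The 6 of the 10 genes past the thresholds in SW1990 became 3 with a pseudocount of 1, and ran from 5 to 7 with a sample left out. The 1 in CFPAC-1 became 2 with a pseudocount of 0.01 or with voom, and ran from 1 to 3 with a sample left out (2 without CFPAC-1 negative replicate 1, 3 without CFPAC-1 positive replicate 3).

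The 11 exocytosis genes called in SW1990 became 5 with a pseudocount of 1 and 7 at a mean RPKM of at least 1, and ran from 9 to 13 with a sample left out. The 1 in CFPAC-1 became 0 with a pseudocount of 1, a mean RPKM of at least 1 or an adjusted p under 0.01, 2 with median centring, 3 with a pseudocount of 0.01 or quantile normalization and 4 with voom. It ran from 1 to 3 with a sample left out (2 without SW1990 negative replicate 3, SW1990 positive replicate 1, SW1990 positive replicate 2 or CFPAC-1 negative replicate 3, and 3 without CFPAC-1 positive replicate 3). The 17 whose sorting difference differed between lines ran from 14 to 21. The cause of these shifts was not tested. Among 712 re-estimates for the other genes followed, 23 lost the call and 4 gained it, the latter all for *SYT15* in CFPAC-1. A block within line could not be fitted for the differences between lines, nor the samples of 1 contrast alone for the difference of differences, and *SYT1* fell under a mean RPKM of 1.

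Same-numbered samples of a line had correlations of their deviations from 0.02 to 0.18 in SW1990 and from -0.06 to 0.001 in CFPAC-1. For samples of different numbers these ran from -0.25 to 0.16 in SW1990 and from -0.03 to 0.04 in CFPAC-1. Whether same-numbered samples came from the same sort is not given in the sources used here. A pairing by sort was therefore neither shown nor excluded. With the replicate number as a block, 7 and 6 of the 10 genes passed the thresholds between lines, 6 and 1 between positive and negative cells, and 11 and 3 exocytosis genes were called in SW1990 and CFPAC-1. With a block within line the last was also 3, and 18 and 15 of the 51 differed between lines under these blocks.

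Depth limits what can be said of *SYT1* and *SYTL5* in SW1990, *SYT11* in positive cells, *SYT8* in CFPAC-1 and *SYT16*, which rest on few reads. Over the alternatives, the log2 difference of *SYT11* between positive and negative cells ran from -4.28 to -1.79 in SW1990. In CFPAC-1 it ran from -2.84 to -1.44. That of *SYTL5* in SW1990 ran from -2.02 to -0.20, and that of *SYT8* in CFPAC-1 from 0.43 to 1.06. Each was smallest in size with a pseudocount of 1.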
